A study of Mus musculus with 12 samples.

Results

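Loss of 1 copy of En1 was compared between 2 mouse strains, gene by gene, by subtracting the effect of the genotype in OF1 mice from its effect in C57 mice. All 12 libraries of the series entered this contrast, 3 in each of 4 groups: WT mice of both strains (OF1 WT, C57 WT) and hemizygous mice of both (OF1-En1+/-, C57-En1+/-). RNA came from the substantia nigra pars compacta (SNpc), the midbrain nucleus that holds the dopaminergic neurons lost in Parkinson's disease, captured by laser from male mice 1 week of age. OF1 is the outbred SwissOF1 stock and C57 is C57Bl/6j. In hemizygous mice the disrupted copy carries a LacZ insertion, and the C57 line was made by backcrossing the OF1 allele, so that DNA linked to En1 and the allele itself cannot be told apart in that strain. The genome build was GRCm39, and 18017 of 54193 genes passed a mean normalized count of 10 (reads scaled to the same effective library size) and were tested. Group values are means ± SD with n = 3 mice, and log2 values compare En1+/- with WT mice of the same strain unless they are called the difference between strains.

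En1 (engrailed 1) is a regulator of gene transcription that binds DNA through a homeodomain, and it stays switched on in dopaminergic neurons of the midbrain from the embryo to the adult. Hemizygous OF1 mice serve as a model of slow nigral degeneration and the C57 background is known to protect against it, so the contrast asks which genes answer the loss of En1 differently in the 2 strains. Oxidative phosphorylation, in which complexes I, III and IV pass electrons along the inner mitochondrial membrane and complex V makes ATP, has long been tied to the death of these cells.

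Several libraries stood apart from their groups. The summed normalized count of 23 markers of mature dopaminergic neurons was 466000 in SW22, an OF1-En1+/- mouse, and 743000 in C572S, a C57 WT mouse, against 4110 to 51800 in the other 10 mice. Th, the rate-limiting enzyme of dopamine synthesis, was at 85968 and 121821 in these 2 mice and at 8.8 to 1447 elsewhere, so most captures held few dopaminergic transcripts. C57-En1+/- mouse C572 had 1330 for Xist, the transcript of the inactive X, and 0 for the Y-linked Ddx3y although all mice are given as male. It also had the highest sums of oligodendrocyte markers (204000, against 14400 to 119000) and of cholinergic markers (50500, against 716 to 6130). Depth was 13538864 to 30927714 estimated reads in the 6 OF1 mice, 61433970 to 168741283 in C57 WT and 20030280 to 37754338 in C57-En1+/- mice, so that it moved with genotype in C57 alone. In pieces of tissue, fewer cells of a type and less RNA per cell cannot be told apart. Of the genes named below that DESeq2 called in the 12 mice, Bdkrb2 and Mmel1 alone were also called without SW22 and C572S.

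No gene passed the test of the difference between strains in the quasi-likelihood fit of edgeR after adjustment by Benjamini and Hochberg (0 of 18017, 0%), and the smallest adjusted p was 0.604. At an unadjusted p under 0.05 the effect was higher in C57 for 797 genes (4.42% of those tested) and lower in C57 for 503 (2.79%). limma voom with quality weights also called none, with 1659 at an unadjusted p under 0.05, whereas DESeq2 called 42 (0.233%), 24 higher and 18 lower in C57. Of these 42, 38 had estimates of opposite sign in the 2 strains, against 45.2% of all genes tested. Selection for a large difference between strains itself favours opposite signs, so this count is a description. In 19 of the 42 there was a group in which all 3 mice were at 0. DESeq2 called 32 without SW22 and C572S, of which 10 were among the 42, and 35 without C572, of which 18 were. Values of single genes below are therefore descriptions, and calls are those of DESeq2 where it is named.

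Opposite estimates were common over the whole table. En1+/- was above WT in C57 and below it in OF1 for 4189 genes (23.3%) and the reverse held for 3955 (22%), while 4855 genes (26.9%) were up and 4963 (27.5%) were down in both strains. Few genes did so in every mouse. In 42 genes (0.233%) all 3 C57-En1+/- mice were above all 3 C57 WT mice and all 3 OF1-En1+/- mice were below all 3 OF1 WT mice, and in 46 genes (0.255%) the reverse held. Genes with no overlap in the same direction were more frequent, with 80 up (0.444%) and 185 down (1.03%) in both strains. Among the 42 the median log2 value was 0.79 in C57 and -0.75 in OF1, and in 38 of them the order of the strains was reversed between WT and En1+/- mice. Among the 46 the medians were -0.48 in C57 and 0.63 in OF1, with the strain order reversed in 38. These values describe the genes that the pattern selected. With 3 mice against 3, parting in opposite directions in both strains arises by chance at about the shares found here. The pattern alone therefore shows no effect of genotype in any gene.

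**Figure D1:**
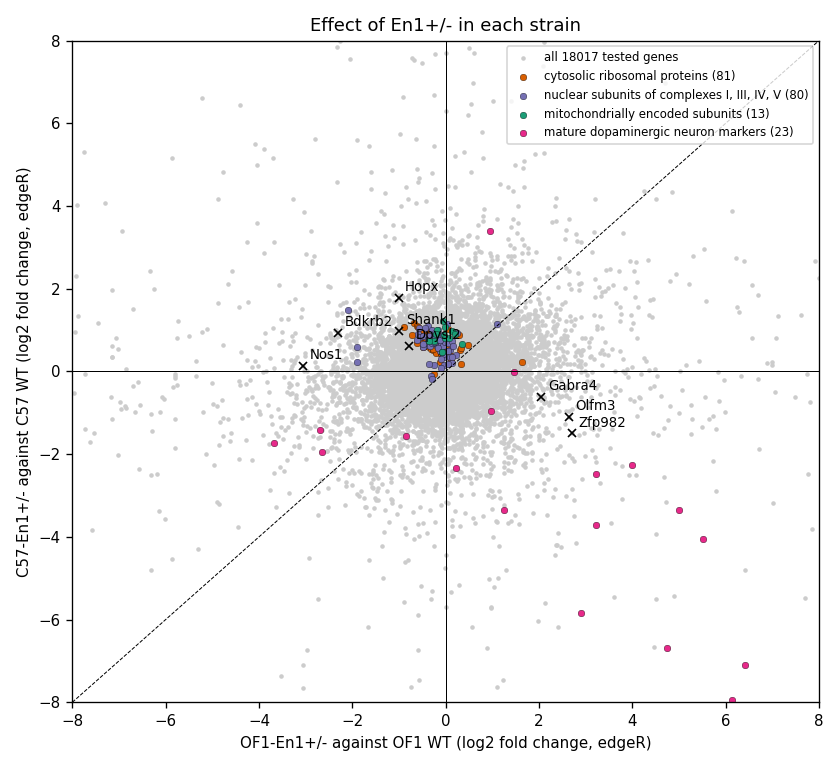
Log2 fold change of En1+/- against WT in OF1 (horizontal axis) and in C57 (vertical axis) for each tested gene, with 134 genes beyond the axes and the dashed line at equal effects. Ribosomal and oxidative phosphorylation genes lie to the left of or near the vertical line and above the horizontal one, and most dopaminergic markers lie at the lower right.

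The protein-coding gene with the smallest p among those higher in all C57-En1+/- and lower in all OF1-En1+/- mice was Dpysl2 (chromosome 14, 67040313 to 67148522), which encodes CRMP2, a cytosolic protein that binds tubulin and relays semaphorin signals in growing axons. In OF1 WT mice its normalized counts were 6449, 8342 and 8768, and they were 4530, 4458 and 4633 in OF1-En1+/- mice. They were 3894, 5283 and 6191 in C57 WT and 8858, 6325 and 7467 in C57-En1+/- mice, so the groups parted in both strains and in opposite directions. The log2 value was -0.78 in OF1 and 0.62 in C57, and the difference between strains was 1.41 ± 0.281 (SE), with an adjusted p of 0.00651 in DESeq2 and an unadjusted p of 0.000312 in edgeR. Leaving out any mouse kept the difference between 1.24 and 1.55, although the DESeq2 adjusted p was 0.0935 without SW22 and C572S.

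Hopx, a small homeodomain protein that does not bind DNA, had the largest difference among the 12 leading genes of this direction. Its counts were 639, 808 and 429 in OF1 WT against 294, 363 and 277 in OF1-En1+/- mice, and 477, 164 and 319 in C57 WT against 610, 1698 and 862 in C57-En1+/- mice. The value of 1698 was that of C572, and without this mouse the difference between strains was 2.23 in place of 2.79 ± 0.639 (DESeq2 adjusted p = 0.0188, and 0.0996 without C572). Chmp4b, a subunit of the ESCRT-III complex that cuts membranes, had means of 409 and 246 in OF1 WT and En1+/- and of 208 and 463 in the C57 groups (difference 1.95 ± 0.491). Hnrnpa0, an RNA-binding protein, was at 757 and 516 in OF1 and at 447 and 879 in C57 (difference 1.59 ± 0.423). Neither of these passed DESeq2's threshold (adjusted p = 0.0661 and 0.109).

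Atp5if1, the inhibitor that stops complex V from running backwards, had 15514, 26314 and 20818 in OF1 WT and 15197, 12164 and 14710 in OF1-En1+/- mice. In C57 it had 12661, 12129 and 16077 in WT and 20829, 25957 and 18565 in En1+/- mice (difference 1.31 ± 0.313, DESeq2 adjusted p = 0.049). Tmem258, a subunit of the complex that attaches sugar chains to new proteins in the endoplasmic reticulum, had means of 2453 ± 628 and 1594 ± 228 in OF1 and of 1489 ± 243 and 2429 ± 338 in C57 (difference 1.38 ± 0.318, DESeq2 adjusted p = 0.0467). Pigp and Pgap2, both enzymes of glycosylphosphatidylinositol anchors, had differences of 0.99 ± 0.26 and 1.04 ± 0.264. Gstp1, a glutathione transferase whose reads can be shared with its near copy Gstp2, had means of 10106 and 5877 in OF1 and 7088 and 10545 in C57. The remaining leading genes were Camk2n2, an inhibitor of the kinase CaMKII, Ptms, a nuclear protein, and Atp5mj, a small subunit of complex V, with differences of 1.73 ± 0.449, 1.55 ± 0.421 and 1.49 ± 0.408. The DESeq2 calls of Tmem258 and Atp5if1 were lost without SW22 and C572S (adjusted p = 0.421 and 0.449), without C572 (0.123 and 0.127) and with offsets for transcript length (0.0703 and 0.0994).

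**Figure D2:**
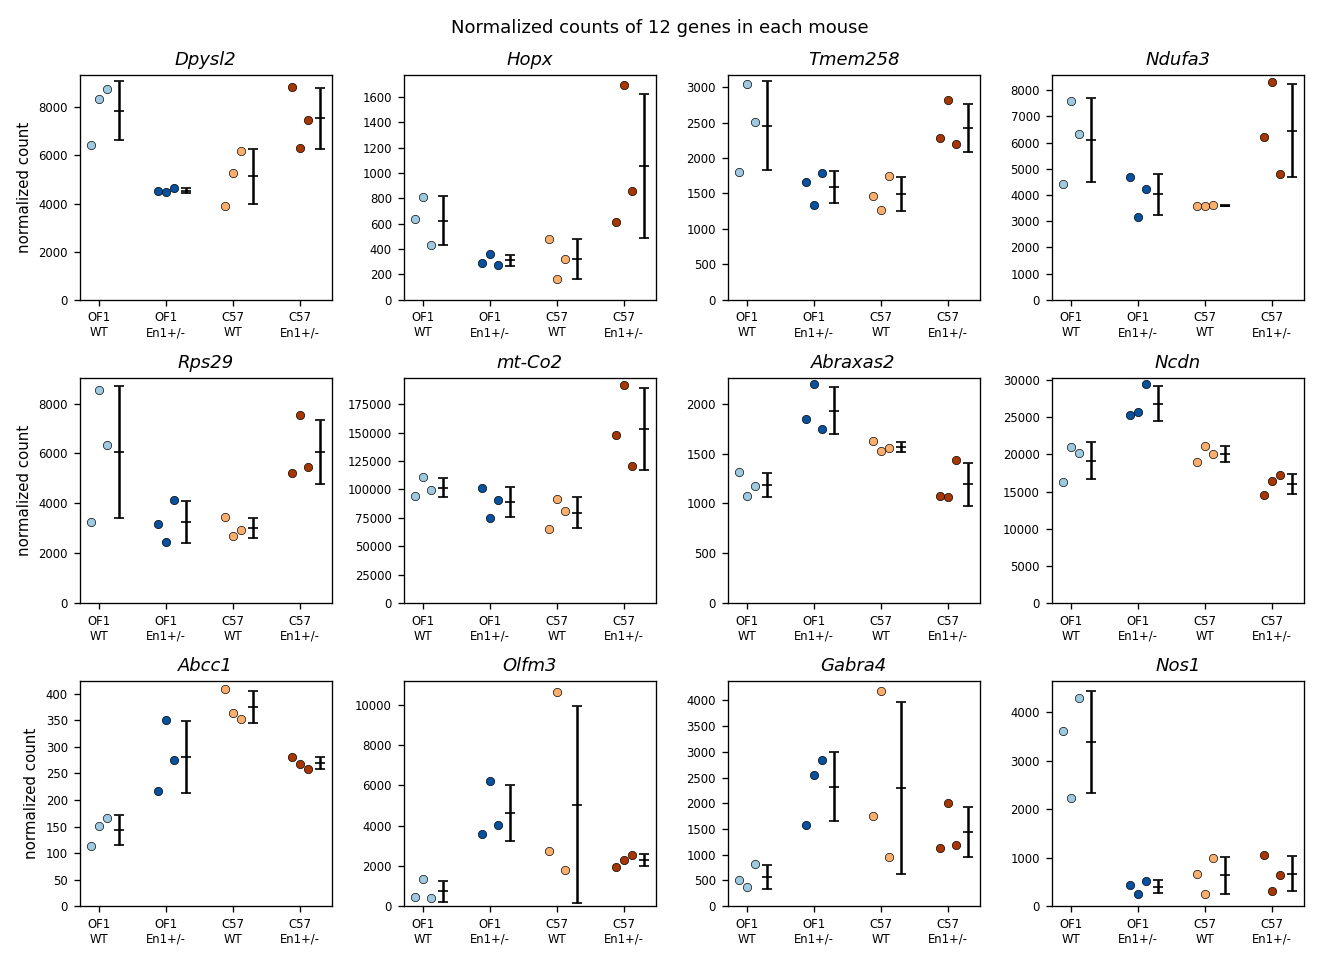
Normalized count (vertical axes, from 0) of 12 genes in each mouse, with the mean and SD of each group in black. Dpysl2 is between 4458 and 4633 in the 3 OF1-En1+/- mice and between 6325 and 8858 in C57-En1+/- mice, while Abraxas2 and Ncdn show the reverse order.

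Nuclear genes of the respiratory chain as a group differed between the strains in 1 direction. Of 38 complex I subunits tested, all 38 had a higher effect in C57 than in OF1, 32 were up in C57 and down in OF1, and none showed the reverse. Over all genes, 9096 of 18017 had a higher effect in C57, 23.3% were up in C57 and down in OF1 and 22% the reverse. The unadjusted p was under 0.05 for 24 of the 38, all higher in C57, against 4.42% of all genes. Of 42 subunits of complexes III, IV and V, all 42 had a higher effect in C57, with 33 up in C57 and down in OF1 and 26 at an unadjusted p under 0.05. The median difference between strains was 0.93 for complex I and 0.97 for the other complexes, against 0.01 for all tested genes. No member passed edgeR's adjusted threshold, and DESeq2 called 1 of the 80, Ndufa3.

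The C57 side of this difference held more firmly than the OF1 side. The median log2 value was 0.69 in C57 and -0.18 in OF1 for complex I, and 0.78 and -0.22 for the other complexes. In C57 the 3 En1+/- mice were all above the 3 WT mice for 16 complex I genes and 14 of the other complexes, where 6.2% of all genes were. In OF1 the 3 En1+/- mice were all below the WT mice for 1 and 4 genes, where 8.04% of all genes were. The lower values in OF1 came mainly from SW22, whose mean log2 level of complex I genes was 7.51, against 8.00 and 8.13 in the other OF1-En1+/- mice and 7.94 to 8.15 in OF1 WT. Without SW22 and C572S the OF1 medians were -0.01 and -0.04, the C57 medians 0.58 and 0.64, and 22 of 38 and 22 of 42 genes had opposite estimates.

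Ndufa3, an accessory subunit of complex I, had 4405, 7601 and 6311 in OF1 WT and 4690, 3165 and 4233 in OF1-En1+/- mice, which overlapped. It had 3584, 3578 and 3627 in C57 WT and 6226, 8331 and 4804 in C57-En1+/- mice, which did not. The difference between strains was 1.5 ± 0.356 (DESeq2 adjusted p = 0.049, edgeR unadjusted p = 0.00119), and the DESeq2 adjusted p was 0.358 without SW22 and C572S and 0.125 without C572. Ndufa1, the X-linked subunit needed to assemble complex I, had means of 6354 ± 1153 and 4906 ± 1523 in OF1 and of 3566 ± 119 and 7392 ± 1927 in C57 (difference 1.48 ± 0.368), and the highest of its 12 values was 9519 in C572. Ndufv3 had a difference of 1.08 ± 0.296. In complex V, Atp5mf had a difference of 1.40 ± 0.397, and in complex IV Cox7a2 had 1.30 ± 0.378.

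The promoters of 2 of these genes are printed because both hold the same word just after the start of transcription. RefSeq promoters, 250 bases before to 50 after a start in the build GRCm38.p6, were found for 65 of the 80 nuclear genes (70 promoters) and searched on both strands for CCGGAAG (ETS factors), GCATGCGC (NRF1), AAGATGGC (YY1) and TAATTA (the homeodomain core, which En1 shares with many factors). Matches are in capitals, and in both of these promoters they mark AAGATGGC, starting 22 bases after the start of Ndufa3 (chr7:3617123-3617422, plus strand) and 23 after that of Atp5mf (chr5:145191492-145191791, minus strand).
Ndufa3: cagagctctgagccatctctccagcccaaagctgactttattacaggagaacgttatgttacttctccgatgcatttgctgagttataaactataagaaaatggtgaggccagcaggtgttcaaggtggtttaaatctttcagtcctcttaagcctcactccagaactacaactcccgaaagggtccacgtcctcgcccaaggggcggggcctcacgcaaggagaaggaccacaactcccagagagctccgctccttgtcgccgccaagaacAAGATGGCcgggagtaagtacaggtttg
Atp5mf: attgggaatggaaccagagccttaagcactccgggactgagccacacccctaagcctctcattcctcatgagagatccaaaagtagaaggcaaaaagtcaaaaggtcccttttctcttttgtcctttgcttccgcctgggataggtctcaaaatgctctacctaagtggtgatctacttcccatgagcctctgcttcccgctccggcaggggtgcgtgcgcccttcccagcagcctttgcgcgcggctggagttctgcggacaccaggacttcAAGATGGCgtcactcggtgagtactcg
AAGATGGC was found in 14.3% of the 70 promoters, GCATGCGC in 12.9%, CCGGAAG in 20% and TAATTA in 0 of 70. Over 21262 promoters of protein-coding genes in the table the shares were 3.05, 3.51, 11.6 and 4.53%, at a G and C content of 56.2% against 57.5% in the 70. Of 38 promoters of the coding genes that parted in every mouse, up in C57 and down in OF1, 5.26, 7.89, 13.2 and 2.63% held these words. In the reverse direction it was 11.6, 2.33, 16.3 and 2.33% of 43 promoters. These shares rest on few promoters: AAGATGGC was in 5 of the 43 against 2 of the 38, and CCGGAAG in 7 against 5. Of 73 promoters of cytosolic ribosomal protein genes, 11.0, 4.11, 35.6 and 1.37% held them. A match in letters is a description and was not tied to binding of any factor.

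The 13 subunits encoded by mitochondrial DNA had higher levels in C57-En1+/- mice. In C57 the En1+/- mice were all above the WT mice for 11 of 13, where 6.2% of all genes were. The median log2 value was 0.89 in C57 and -0.03 in OF1. The difference between strains was above 0 for all 13 (9096 of 18017 over all genes), with a median of 0.93. An unadjusted p under 0.05 was found for 10, all higher in C57, against 4.42% of all genes. mt-Co2, a catalytic subunit of complex IV, had 94245, 110944 and 99540 in OF1 WT and 101043, 75085 and 90608 in OF1-En1+/- mice, against 64869, 91854 and 81348 in C57 WT and 147598, 191766 and 120268 in C57-En1+/- mice. All C57-En1+/- values were thus above those of the other 9 mice. The difference between strains was 1.20 ± 0.296 for mt-Co2, 1.09 ± 0.289 for mt-Co3, 0.97 ± 0.292 for mt-Nd1, 0.93 ± 0.286 for mt-Cytb and 0.83 ± 0.316 for mt-Co1. The share of all reads that was mitochondrial was 3.85 to 5.50% in C57-En1+/- mice and 2.33 to 3.53% in the other 9. Reads of these genes can be shared with their nuclear copies.

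Cytosolic ribosomal proteins had differences in the same direction as the respiratory chain. Of 81 tested, 68 were up in C57 and down in OF1 (23.3% of all genes were) and none showed the reverse (22% of all genes). An unadjusted p under 0.05 was found for 50, all higher in C57, against 4.42% of all genes. The median difference was 0.91, with 0.70 in C57 and -0.23 in OF1. In C57 the En1+/- mice were all above the WT mice for 67 of 81, where 6.2% of all genes were. In OF1 the En1+/- mice were all below the WT mice for 0 of 81, where 8.04% of all genes were. Mean log2 levels of the list overlapped in OF1, at 6.29, 7.18 and 6.71 in WT and 6.62, 6.24 and 6.82 in En1+/- mice. Without SW22 and C572S the median was -0.11 in OF1 and 0.57 in C57. Rps29 had 3256, 8548 and 6343 in OF1 WT, 3158, 2437 and 4143 in OF1-En1+/-, 3439, 2677 and 2928 in C57 WT and 5199, 7532 and 5465 in C57-En1+/- mice (difference 1.96 ± 0.451, DESeq2 adjusted p = 0.0277). The C57 groups parted and those of OF1 overlapped, and the DESeq2 adjusted p was 0.296 without SW22 and C572S and 0.0996 without C572. Rps28 and Rps26 had differences of 1.85 ± 0.506 and 1.49 ± 0.407, and many genes of this family share reads with processed copies. Mitochondrial ribosomal proteins differed less, with 71 of 78 above 0, a median of 0.36 and 12 at an unadjusted p under 0.05, all higher in C57 (Mrpl52, 1.41 ± 0.431, and Mrps21, 0.94 ± 0.31). Of 39 proteasome subunits 33 were above 0, with a median of 0.24. Over all genes 9096 of 18017 were above 0 and 4.42% were higher in C57 at an unadjusted p under 0.05.

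These families share short transcripts, and the difference between strains went with transcript length in other genes too. Protein-coding genes were put in 10 bins of near-equal number by effective length, the part of a transcript from which reads can start, and genes of the 5 mitochondrial and ribosomal lists were then left out. In the shortest bin (1332 genes, up to 815 bases) the median difference was 0.52, with 0.37 in C57 and -0.15 in OF1, and 46.8% were up in C57 and down in OF1 against 6.61% the reverse. In the bin of median length 2930 bases (the seventh) the median was -0.20, with 13.3% and 31.6%. In the longest bin (from 5000 bases) it was 0.08, with 25.4% and 20.4%, so the decline with length was not steady. The median length was 379 bases for complex I genes, 319 for the other complexes, 368 for cytosolic ribosomal and 485 for mitochondrially encoded genes.

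The level of short against other transcripts in each library, measured on those 1332 genes, was also unequal between the groups. In C57 it was -0.22, -0.41 and -0.11 on the log2 scale in WT mice and 0.17, 0.39 and -0.08 in En1+/- mice, which did not overlap. In OF1 it was -0.20, 0.50 and 0.02 in WT and -0.05, -0.18 and 0.08 in En1+/- mice, which did. With this level as a covariate, the median difference between strains was 0.38 for complex I (all 38 still above 0, 3 at an unadjusted p under 0.05), 0.51 for the other nuclear complexes (39 of 42, 2), 0.81 for mitochondrially encoded genes (all 13, 4) and 0.09 for cytosolic ribosomal proteins (55 of 81, 1). The counts at an unadjusted p under 0.05 are of genes higher in C57, which 472 of all 18017 tested genes were in this fit. Over all tested genes the median was -0.01, with 8836 above 0. Mitochondrial ribosomal proteins had a median of -0.01 (37 of 78 above 0, 0 at that p) and proteasome subunits had -0.02 (15 of 39, 0). In the same fit Ndufa3 had 0.77, Rps29 had 0.99, Dpysl2 (4221 bases) had 1.28 and mt-Co2 had 0.85. Depth and the level of short transcripts moved with genotype in C57, and their part in these values cannot be told apart from it by design.

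**Figure D3:**
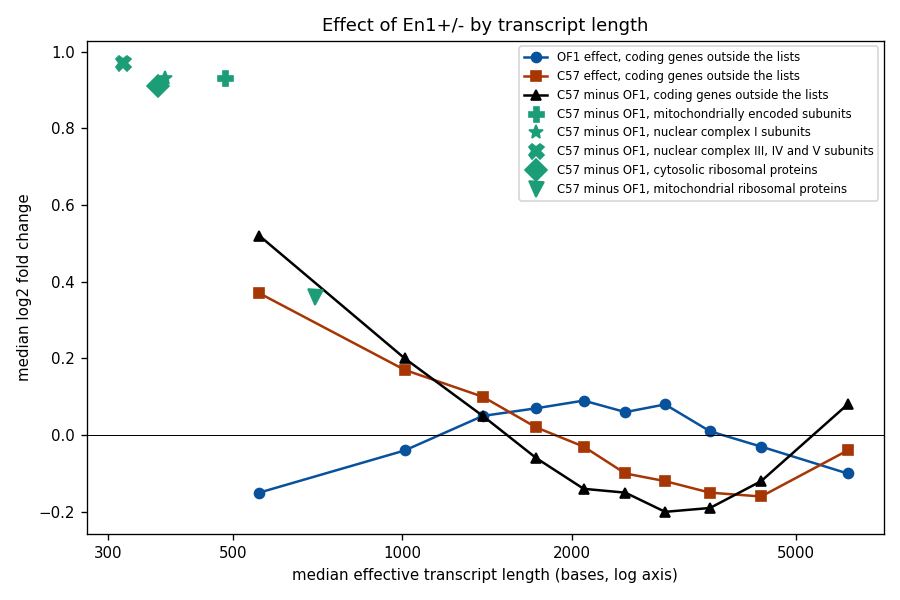
Median log2 fold change (vertical axis) against median effective length (horizontal, log axis) in 10 bins of protein-coding genes outside 5 gene lists, for OF1, for C57 and for C57 minus OF1, with the 5 lists as green symbols. The C57 effect goes from 0.37 in the shortest bin to -0.16 in the ninth and -0.04 in the longest. C57 minus OF1 is at 0.08 in the longest bin. For this difference 4 of the lists lie at 0.91 to 0.97 and the mitochondrial ribosomal proteins at 0.36.

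Genes with the reverse pattern, lower in C57-En1+/- and higher in OF1-En1+/- mice, had a median effective length of 2560 bases over the 40 protein-coding genes that parted in every mouse, against 1030 bases over the 33 of the first direction. Abraxas2, the scaffold of a deubiquitinating complex, had 1317, 1078 and 1173 in OF1 WT and 1849, 2200 and 1751 in OF1-En1+/- mice. It had 1623, 1523 and 1560 in C57 WT and 1075, 1062 and 1437 in C57-En1+/- mice (difference -1.05 ± 0.255, DESeq2 adjusted p = 0.0395). Every group parted from its control, and leaving out any mouse kept the difference between -1.18 and -0.96, but the DESeq2 adjusted p was 0.367 without SW22 and C572S and 0.108 without C572. Ncdn, neurochondrin, a neuronal protein that regulates glutamate receptor signalling and neurite growth, was the most abundant of these genes. Its counts were 16310, 20993 and 20183 in OF1 WT, 25311, 25678 and 29537 in OF1-En1+/-, 18925, 21168 and 20095 in C57 WT and 14552, 16374 and 17221 in C57-En1+/- mice (difference -0.76 ± 0.216, DESeq2 adjusted p = 0.0896).

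Zfp982 and Hps1 had unlike levels in the WT mice of the 2 strains. Zfp982, a zinc finger gene, was at 4.72, 0 and 8.88 in OF1 WT and at 35.2, 23.3 and 30.4 in OF1-En1+/- mice, against 209, 414 and 186 in C57 WT and 46.3, 129 and 100 in C57-En1+/- mice (DESeq2 adjusted p = 0.033, and 0.311 without SW22 and C572S). The levels of the strains were thus nearer to each other in En1+/- than in WT mice. Hps1, part of a complex for the biogenesis of lysosome-related organelles, showed the same closing with means of 41.5 and 120 in OF1 and 270 and 148 in C57 (difference -2.35 ± 0.632). Abcc1, an efflux pump of the plasma membrane, went from 144 ± 27.5 to 281 ± 67.5 in OF1 and from 375 ± 29.9 to 269 ± 11.2 in C57 (difference -1.39 ± 0.417).

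The other leading genes of this direction had differences from -0.81 to -5.19. P2ry1, the ADP receptor of astrocytes and neurons, had 66.1, 92.4 and 53.3 in OF1 WT and 136, 151 and 277 in OF1-En1+/-, against 139, 155 and 171 in C57 WT and 28.8, 94.1 and 87.5 in C57-En1+/- mice (difference -2.50 ± 0.722). Fpgs, which retains folate in cells, had means of 261 and 328 in OF1 and 409 and 184 in C57. Abitram, Rmi1 and Mfsd14a had -1.65 ± 0.467, -0.83 ± 0.249 and -0.88 ± 0.266. Nxf1, the main exporter of mRNA from the nucleus, had -0.81 ± 0.241 but 0.11 when edgeR was given offsets for transcript length, so its direction depends on that setting. Colgalt2, on chromosome 1 like En1, had -5.19 ± 1.46, and its highest values were 751 in SW22 and 832 in C572S, without which the difference was -2.15. DESeq2 called none of these genes and gave Colgalt2 no adjusted p, but with length offsets it called Rmi1 (adjusted p = 0.0149).

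Further coding genes with a mean of 50 or more parted in every mouse, and those named here were chosen after their values were seen. Up in C57 and down in OF1, at 0.97 to 2.02, were the complex I subunit Ndufa5 and the complex IV assembly factor Cox20, the kinases Abl2, Wnk1 and Map4k4, the kinase scaffold Ksr1, the histone demethylase Kdm6b and the adhesion protein Flrt1. Ndufa5 had 8193, 9159 and 9416 in OF1 WT and 8148, 4746 and 7682 in OF1-En1+/-, against 5823, 5462 and 6812 in C57 WT and 10050, 10650 and 7075 in C57-En1+/- mice (difference 1.06 ± 0.321). The OF1 groups nearly met, at 8148 and 8193. Down in C57 and up in OF1, at -0.67 to -1.49, were Ddx11 and Rad17, which act in genome maintenance, Exosc3 and Cpsf2, which process RNA, the cell cycle regulators Skp2 and E2f5, and Xylt2, which starts the sugar chains of proteoglycans. E2f5 had -0.67 ± 0.462 with an unadjusted p of 0.172 in edgeR. Xylt2 was at 2701 in SWB against 675 to 1153 elsewhere, and without SWB its difference was -0.58 in place of -1.20. Rad17 had 396, 251 and 470 in OF1 WT, 616, 488 and 534 in OF1-En1+/-, 504, 568 and 779 in C57 WT and 417, 435 and 483 in C57-En1+/- mice (difference -0.97 ± 0.382).

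**Figure D4:**
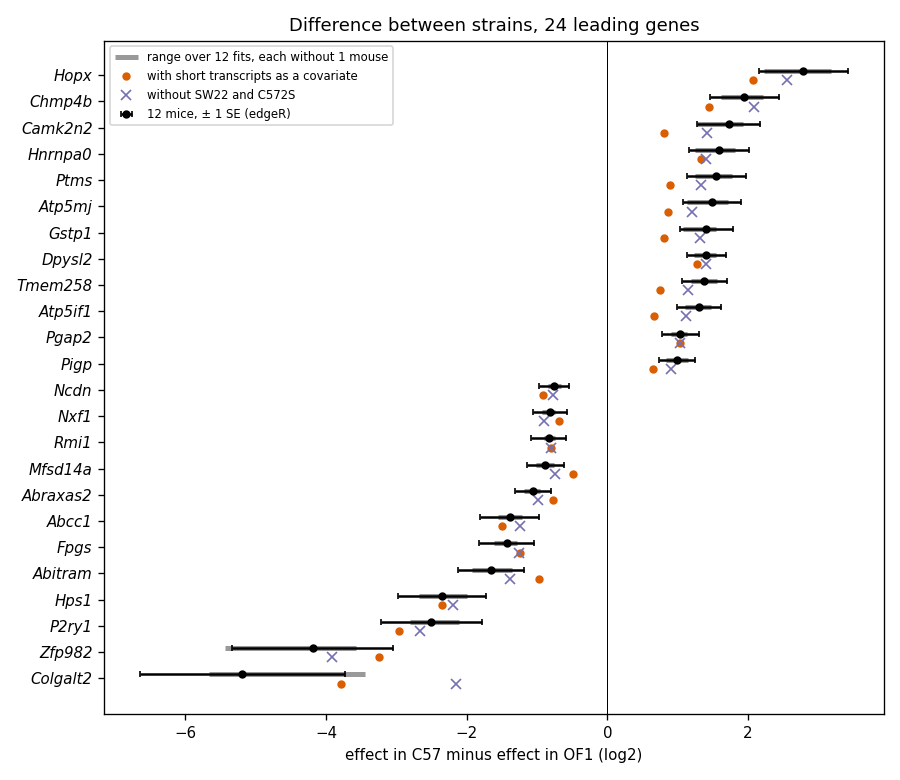
Difference between strains (effect in C57 minus effect in OF1, log2, horizontal axis) for 24 leading genes, with the SE of the fit to 12 mice in black, the range over 12 fits that each leave out 1 mouse in grey, the fit without SW22 and C572S as crosses and the fit with the level of short transcripts in orange. Every estimate shown keeps its sign, and that of Colgalt2 goes from -5.19 to -2.15 without the 2 mice.

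DESeq2 also called genes whose groups overlapped in at least 1 strain. Nos1, neuronal nitric oxide synthase, had 3620, 2240 and 4293 in OF1 WT and 431, 253 and 526 in OF1-En1+/- mice, but 672, 242 and 989 in C57 WT and 1048, 323 and 646 in C57-En1+/- mice (difference 3.20 ± 0.739, DESeq2 adjusted p = 0.00914). The high values were those of the 3 OF1 WT mice, and the DESeq2 adjusted p was 0.0513 without SW22 and C572S. Bdkrb2, a bradykinin receptor, had 283, 178 and 374 in OF1 WT and 47.5, 55.8 and 63 in OF1-En1+/- mice, and 95.8, 81.7 and 160 in C57 WT against 251, 249 and 121 in C57-En1+/- mice (difference 3.26 ± 0.637, DESeq2 adjusted p = 0.00213). DESeq2 also called Bdkrb2 without SW22 and C572S (0.0467) and without C572 (0.0248), and likewise Mmel1 (0.00298 and 0.000512). Mmel1, a membrane metallopeptidase, was at 0 in all 3 OF1 WT mice and at 58.1, 170 and 54 in OF1-En1+/- mice, at least 20.3-fold higher when WT is set to 3 reads in each library, and at 59.2, 72.4 and 154 against 28.8, 80.5 and 97.8 in C57. Shank1, a scaffold of the postsynaptic density, had 2430, 4284 and 1778 against 1183, 1274 and 1779 in OF1, and 2614, 1849 and 2389 against 5079, 4188 and 3756 in C57 (difference 1.99 ± 0.435, DESeq2 adjusted p = 0.0178, and 0.237 without SW22 and C572S).

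Olfm3, Tafa4 and Tmem232 were highest in mice SW22 or C572S. Olfm3, a secreted protein of the synapse, had 439, 1348 and 429 in OF1 WT and 3607, 6206 and 4030 in OF1-En1+/-, and 2721, 10647 and 1778 in C57 WT against 1962, 2295 and 2560 in C57-En1+/- mice. The OF1 groups parted without SW22 as well, and the difference of -3.74 ± 0.904 became -2.33 without SW22 and C572S (DESeq2 adjusted p = 0.00552, and 0.181 without the 2 mice). Tafa4, a secreted chemokine-like protein, had 1179 in SW22, 1063 in SWB and 1514 in C572S against 24.6 to 218 elsewhere. Tmem232 had 484 in SW22 and 368 in C572S against 0 to 63.2 elsewhere. Without these 2 mice the difference went from -6.43 to -4.18 for Tafa4 and from -8.59 to -4.4 for Tmem232, and neither was called (DESeq2 adjusted p = 0.489 and 0.8). Ube2srt was at 0 in 5 of 6 OF1 mice and at 127 in SW7, so its level in OF1 was that of 1 mouse.

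Dopaminergic neuron genes had far-apart estimates in opposite directions, with the high values in 2 mice. Of 23 markers, 18 were down in C57 and up in OF1, where 22% of all genes were. The median was 3.22 in OF1, -3.35 in C57 and -6.94 for the difference. At an unadjusted p under 0.05 were 14, all lower in C57, against 2.79% of all genes. Slc6a3, the dopamine transporter, had 205403 in SW22 and 350647 in C572S, 3230 in C5743 and 4.18 to 229 in the other 9 mice. Slc18a2, which loads monoamines into vesicles, had 44885 in SW22 and 61521 in C572S and 158 to 4251 elsewhere (DESeq2 adjusted p = 0.0395, and -2.0 in place of -9.56 for the difference without the 2 mice). Without SW22 and C572S the median difference over the 23 genes was 0.83, with -0.97 in OF1 and -0.67 in C57, and 2 genes were down in C57 and up in OF1 and 4 the reverse. Foxa2, a factor of dopaminergic progenitors and neurons, was at 249 in SW22 and 302 in C572S, at 16.5 in C5743 and at 0 to 2.36 in the other mice, so the high values behind its DESeq2 adjusted p of 2.68e-06 were those of these libraries. Tyrp1 and Gata3 were highest in SW22 as well (479 and 1816). Without SW22 and C572S the DESeq2 adjusted p was 0.999 for Foxa2, Tyrp1, Gata3 and Slc18a2.

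En1 itself followed the same 2 mice. It was at 9.44, 15.2 and 1.11 in OF1 WT, at 0, 691 and 0 in OF1-En1+/-, at 0.871, 1071 and 11.7 in C57 WT and at 0, 9.41 and 0 in C57-En1+/- mice. The difference between strains in mean log2 level was -4.01, with p = 0.365 in the two-sided exact permutation test over 400 arrangements of genotypes within strains, which can give no p below 0.005. En1 therefore gives no check of the genotype labels. Anxa1, a calcium-dependent phospholipid-binding protein of a subset of dopaminergic neurons, was lower in WT than in all En1+/- mice of OF1 (14.2, 18.7 and 17.8 against 72.2, 426 and 88.9), and had 96.7, 146 and 54.9 in C57 WT against 68.7, 4.18 and 7.72 in C57-En1+/- mice (difference -5.37 ± 1.46, DESeq2 adjusted p = 0.049). Without SW22 and C572S its difference was -3.71 with a DESeq2 adjusted p of 0.799, which was 0.0889 without C572.

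Markers of cells that surround the SNpc differed between the strains too. For 18 markers of subthalamic and posterior hypothalamic neurons the median was -3.43 in OF1 and -0.70 in C57, with a median difference of 3.04 (0.84 without SW7). Of these, 3 were up in C57 and down in OF1 (16.7%, against 23.3% of all genes). At an unadjusted p under 0.05 were 4, all higher in C57 (22.2%, against 4.42%). Summed levels of this list were 84900 to 461000 in OF1 WT, 7950 to 15800 in OF1-En1+/-, 10900 to 298000 in C57 WT and 7670 to 121000 in C57-En1+/- mice. Nos1 is on this list, and Nxph4, also on it, was at 1321, 74.8 and 1489 in OF1 WT and at 0 to 76.7 in OF1-En1+/- mice. The part of tissue composition in these values was not tested. The 7 cholinergic markers had a median difference of 7.35, and 0.56 without C572, in which Slc18a3, the vesicular acetylcholine transporter, was at 11871 against at most 515 elsewhere. The 12 oligodendrocyte markers had 1.63, and -1.10 without C572. Astrocyte, microglia, endothelial and oligodendrocyte precursor markers had medians between -0.46 and -0.01. Red blood cell markers had 1.60 (-0.19 without SW7), glutamatergic markers 1.00 and midbrain GABAergic markers -0.69 (0.29 without SW22). Mural and fibroblast markers had 0.36 (-0.16 without SW7), and ependymal and choroid plexus markers -0.42 (1.25 without C5710 and -1.75 without C5713). Summed GABAergic levels were 1290 to 27200 in OF1 WT and 24200 to 65500 in OF1-En1+/- mice. They were 5850 to 29500 in C57 WT and 5730 to 65500 in C57-En1+/- mice.

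**Figure D5:**
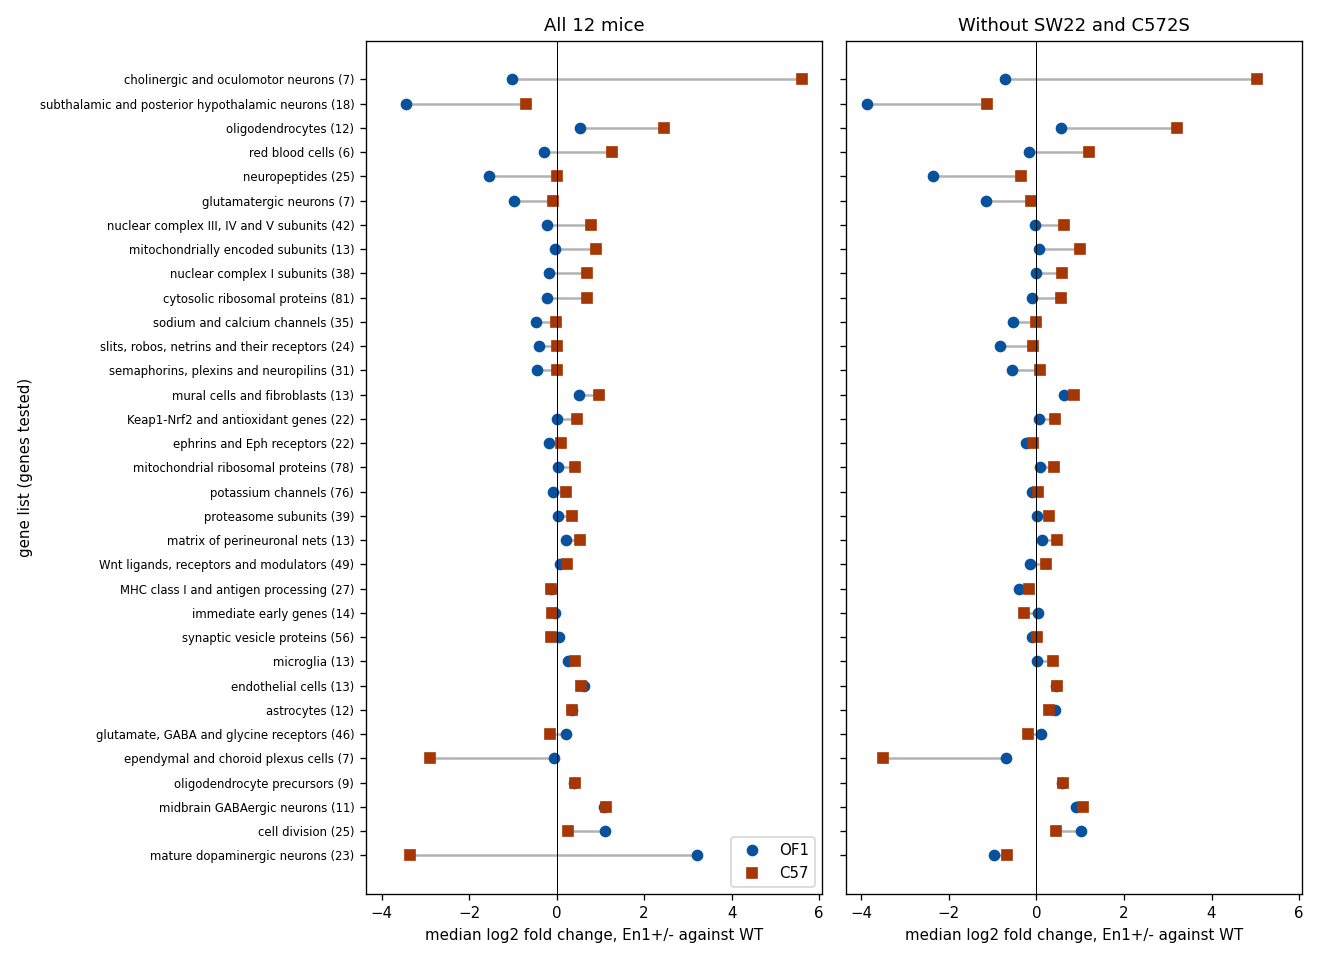
Median log2 fold change of En1+/- against WT in OF1 (circles) and in C57 (squares) for 33 gene lists, ordered by C57 minus OF1, with all 12 mice at the left and without SW22 and C572S at the right. Dopaminergic markers go from 3.22 and -3.35 to -0.97 and -0.67, while the lists of the respiratory chain and of cytosolic ribosomal proteins lie at 0.69 to 0.89 in C57 and -0.23 to -0.03 in OF1 at the left, and at 0.57 to 1.00 and -0.11 to 0.06 at the right.

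Among 3 lists of axon guidance genes, semaphorins and their receptors held the most opposite estimates, at about the share of all genes (45.2%). Their direction was less even than that of all genes. Of 31 semaphorins, plexins and neuropilins, 12 were up in C57 and down in OF1 (38.7%, against 23.3% of all genes). The reverse held for 2 (6.45%, against 22% of all genes), and the median was -0.44 in OF1 and 0.00 in C57. In OF1 all En1+/- mice were below all WT mice for 5 of them, where 8.04% of all genes were. Plxna4, a receptor of class 3 semaphorins, had 3044, 2822 and 3060 in OF1 WT and 1305, 1479 and 1145 in OF1-En1+/-, against 1897, 2010 and 2875 in C57 WT and 2198, 2528 and 1605 in C57-En1+/- mice (difference 1.14 ± 0.31, DESeq2 adjusted p = 0.133). The 3 OF1-En1+/- mice were the lowest of the 12. Plxna2 and Plxnd1 had differences of 1.54 ± 0.423 and 4.27 ± 1.17 (adjusted p = 0.127 and 0.0507). Sema3a, a ligand, was at 5118, 44.4 and 3919 in OF1 WT and at 31.7, 126 and 67.5 in OF1-En1+/-, with SW7 as low as the En1+/- mice. Of 24 slits, robos, netrins and their receptors, 5 were up in C57 and down in OF1 (20.8%, below the share of all genes) and 1 the reverse, with a median difference of 0.55. In that list Slit2, a midline repellent, had -3.0 in OF1 and -0.46 in C57. Of 22 ephrins and Eph receptors 4 (18.2%) and 2 had opposite estimates, with a median difference of 0.36 and a median of -0.17 in OF1.

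Receptors of fast and slow transmission leaned the other way in number. Of 46 glutamate, GABA and glycine receptor genes, 18 were down in C57 and up in OF1 and 4 the reverse, against 22% and 23.3% of all genes, and the median was 0.21 in OF1, -0.15 in C57 and -0.18 for the difference. In C57 the 3 En1+/- mice were all below the WT mice for 7 (8.08% of all genes were), and in OF1 all above for 4 (7.68% of all genes). Gabra4, an extrasynaptic GABA receptor subunit, had 517, 371 and 814 in OF1 WT, 1572, 2555 and 2846 in OF1-En1+/-, 1755, 4181 and 958 in C57 WT and 1131, 2012 and 1191 in C57-En1+/- mice (difference -2.65 ± 0.692, DESeq2 adjusted p = 0.0467, and 0.462 without SW22 and C572S). The OF1 groups parted and those of C57 overlapped. Gria1, an AMPA receptor subunit, had a difference of 2.01 ± 0.674. Among channels, 25 of 76 potassium channel genes were up in C57 and down in OF1 and 11 the reverse. At an unadjusted p under 0.05, however, 1 of the 76 was higher in C57 (4.42% of all genes were) and 4 were lower (2.79%). Of 35 sodium and calcium channel genes 12 were up in C57 and down in OF1 and 4 the reverse, with a median difference of 0.64. At that p 2 of them were higher in C57 and 1 was lower. Of 56 synaptic vesicle genes 7 were up in C57 and down in OF1 and 12 the reverse, with a median difference of 0.03. In that list Rph3a, which binds Rab3 on vesicles, had 2.10 ± 0.538 (DESeq2 adjusted p = 0.0624).

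Cell division genes had higher levels in OF1-En1+/- mice, with smaller values in C57. All 3 OF1-En1+/- mice were above all OF1 WT mice for 15 of 25, where 7.68% of all genes were, and the median was 1.11 in OF1 and 0.27 in C57. The difference between strains was below 0 for 21 of 25 with a median of -0.74, yet both estimates were up for 21, so this is a difference in size more than in direction. Cdca7, a target of MYC and E2F, had 66.1, 85.3 and 26.6 in OF1 WT and 319, 274 and 221 in OF1-En1+/-, against 129, 270 and 101 in C57 WT and 228, 191 and 159 in C57-En1+/- mice (difference -1.92 ± 0.706). Smc2, a condensin subunit, had means of 210 and 352 in OF1 and of 380 and 361 in C57 (difference -0.77 ± 0.392).

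The 22 genes of the Keap1-Nrf2 system and antioxidant defence had a median difference of 0.36. Of these, 8 were up in C57 and down in OF1 and 2 the reverse (36.4 and 9.09%, against 23.3 and 22% of all genes). Sod1, which converts superoxide, had means of 3469 and 2838 in OF1 and 2195 and 3854 in C57 (difference 1.16 ± 0.334, and 0.48 with short transcripts as a covariate). Txn1, thioredoxin, had 1.05 ± 0.358. Keap1, the sensor that holds Nrf2 in check, was lower in En1+/- mice of both strains (-0.45 in OF1 and -0.78 in C57), and the difference was -0.33 ± 0.255. Nos3, the endothelial nitric oxide synthase, was higher in both (1.19 and 0.56). The 25 neuropeptide genes had a median difference of 1.14, and -0.83 without SW7. At an unadjusted p under 0.05, 5 of them were higher in C57 and 3 were lower, against 4.42% and 2.79% of all genes. Among these 25, Sct, secretin, had 160, 105 and 189 against 12.3, 34.9 and 34.9 in OF1 and 53.6, 66.8 and 106 against 95.9, 86.7 and 99.5 in C57 (difference 2.83 ± 0.743, DESeq2 adjusted p = 0.053). Cck, cholecystokinin, was at 14666 in SWB and at 49.6 to 1011 in the other 11 mice. Trh and Penk, which encode thyrotropin-releasing hormone and enkephalins, had differences of 7.45 ± 2.42 and 4.22 ± 1.52, and these were 5.49 without C575 and 2.39 without SW7.

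Other lists held single genes at an unadjusted p under 0.05. Among Wnt pathway genes, the secreted inhibitor Sfrp1 had a difference of 3.40 ± 1.22, with -1.95 in OF1 and 1.45 in C57, and the difference was 1.85 without C572. Ncan, neurocan of the perineuronal matrix, had 0.85 ± 0.327, with -0.43 and 0.42. Tagln, a smooth muscle protein, had 2.86 ± 1.16, and Itgam, an integrin of microglia, had -1.98 ± 0.812. Rbfox3, the splicing factor known as NeuN, had 1.35 ± 0.453, with -1.18 in OF1 and 0.18 in C57. Stx2, a syntaxin of membrane fusion, had -1.68 ± 0.495, with 0.89 and -0.79.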

How the data were processed

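RNA of laser-captured SNpc from 12 mice, 3 in each group, was analysed. Per the labels and the study's methods, libraries were made with SMART-Seq v4 and Nextera XT, which do not record strand, and Salmon was run on transcripts of GRCm39. The authors deposited estimated counts of reads per transcript, which need not be whole numbers, with an effective length for each transcript.

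The estimated counts were matched by identifier to GENCODE vM39 (139555 of 140790 transcripts, 99.12%), summed per gene and rounded. The depth was 13538864 to 168741283 reads. The 18017 of 54193 genes whose normalized count averaged 10 or more were fitted with edgeR 4.0.16 in R 4.3.3 with TMM factors, 1 mean per group, a robust quasi-likelihood test and Benjamini-Hochberg adjustment at 0.05. The test was two-sided, and 3 mice a group measure only the spread between these mice. DESeq2 1.42.0, limma 3.58.1 and other alternatives were run as the closing section gives. The level of short transcripts as a covariate and DESeq2 without the mice that stand apart were added after seeing the data. The scripts were tested on simulated data.

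Genes named were protein-coding and averaged 50 or more: the 12 with the smallest p in each opposite pattern without overlap, the 10 with the smallest p among the other DESeq2 calls, up to 3 of each gene list at an unadjusted p under 0.05, and genes the study names, with no minimum. Th, Slc6a3, Ddx3y and the noncoding Xist were added as markers of the libraries that stand apart. Further coding genes that parted in every mouse were chosen after their values were seen. Some genes that met these rules are not reported here. All lists and rules were chosen with earlier results of these data known. Gene lists were described by counts and medians, without a test. Python 3.11.15, pandas 2.3.3, numpy 2.4.6 and matplotlib 3.10.9 were also used.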

Additional observations from a re-analysis of the deposited data

Results flagged for a closer look

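The effect of En1+/- differed between the 2 strains by the DESeq2 test of that difference for 22 of the genes named, none of which passed edgeR's test. Higher in C57 than in OF1, with DESeq2 adjusted p, were Bdkrb2 (0.00213), Ube2srt (0.00281), Dpysl2 (0.00651), Nos1 (0.00914), Shank1 (0.0178), Hopx (0.0188), Rps29 (0.0277), Tmem258 (0.0467), Ndufa3 (0.049) and Atp5if1 (0.049). In edgeR their differences on the log2 scale were 3.26, 8.19, 1.41, 3.20, 1.99, 2.79, 1.96, 1.38, 1.5 and 1.31. For Dpysl2, Hopx, Tmem258 and Atp5if1 all 3 mice of each En1+/- group lay beyond their WT group, in opposite directions. Lower in C57 were Foxa2 (2.68e-06), Mmel1 (0.000148), Gata3 (0.000422), Tyrp1 (0.00208), Olfm3 (0.00552), Tafa4 (0.00599), Tmem232 (0.00663), Zfp982 (0.033), Abraxas2 (0.0395), Slc18a2 (0.0395), Gabra4 (0.0467) and Anxa1 (0.049). Of these Abraxas2 (-1.05) and Zfp982 (-4.19) parted in every mouse. For Gata3, Tyrp1, Foxa2 and Slc18a2 the highest levels were in SW22 or C572S, and without these 2 mice the DESeq2 adjusted p of each was 0.999. Of the 22 genes, Bdkrb2 (0.0467) and Mmel1 (0.00298) alone were also called without SW22 and C572S. Gata3 in OF1-En1+/- mice was at 5.28, 1816 and 0.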

How the results depend on the processing

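The count of genes whose genotype effect differed between strains was 0 with edgeR and stayed at 0 with relative log expression factors, length offsets, no filter, protein-coding genes only, limma voom, short transcripts as a covariate and without SW22 and C572S. It was 42 with DESeq2, 46 with length offsets in DESeq2, 32 in DESeq2 without SW22 and C572S, 35 in DESeq2 without C572, and 0 to 1 when each mouse was left out in turn (1 without SW7 and 1 without C572S). The counts of the genotype effect were 0 in OF1 (DESeq2 202, 196 with length offsets, 1 without SW22 and C572S, 0 to 3 without each mouse) and 0 in C57 (DESeq2 74, 65 with length offsets, 0 to 1). At an unadjusted p under 0.05 the 1300 genes became 1956 without a filter, 743 without SW22 and C572S, 815 with short transcripts as a covariate and 859 to 1627 without each mouse. Genes parted in opposite directions in every mouse numbered 88, and 214 without the 2 mice, where groups of 2 part more easily. The 106 named genes kept the sign of their difference in 1996 of 2014 alternative values. The exceptions were Nxf1 (0.11 and 0.10 with length offsets in edgeR and DESeq2), Gata3 (0.53 with voom, 0.79 without SW22 and C572S), Ube2srt (-1.07 with voom, -0.68 to 8.94 without each mouse), Chat (-1.12 to 8.45 without each mouse), En1 (5.65) and Th (0.47) without SW22 and C572S, Pax3 (1.65 and 1.88 in DESeq2, 2.32 with voom, 7.47 without the 2 mice, -2.03 to 7.52 without each mouse, 0.32 with the covariate), Xist (-1.57 to 8.58 without each mouse, -5.48 with the covariate) and Ddx3y (0.26 with the covariate), and the cause was not tested. Of 495 alternative medians of the 33 lists, 448 moved by less than 1 SD of the list's level within groups. No paired analysis was possible because the labels give no replicate numbers that the groups share. Depth limits the lowest genes most in OF1, where 1 read is worth up to 2.36 normalized counts.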
